A study of Caenorhabditis elegans with 4 samples.

Results

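Small RNA was sequenced from 4 pools of whole *C. elegans* at day 0 of adulthood, and the comparison described here is between the 2 libraries of worms grown at 20 °C, ALG-1/OE and its control strain, ctrl. ALG-1/OE is strain CT20, which carries *zaIs5*, an integrated multicopy transgene that makes GFP-tagged ALG-1 from the *alg-1* promoter, together with the *rol-6(su1006)* marker. The ctrl strain is PE255, which carries *feIs5*, a luciferase and GFP fusion made from the *sur-5* promoter and integrated on the X chromosome, with the same *rol-6(su1006)* marker. The series' design text gives the name CT20 to the control, whereas the sample labels and the text of the study give it to the overexpression strain, and the sample labels were followed for the direction of every ratio. Both strains therefore have a GFP transgene and the Roller marker, but they differ in the promoter, the protein and the place of the transgene, and a difference between the libraries that comes from ALG-1 cannot be told apart from one that comes from these features. The remaining libraries, wild type (WT, N2) and the germline-deficient mutant *glp-1(e2144)* (CF1903), came from worms kept at 25 °C and are given only beside these values. There was 1 library per strain, so no error between pools of worms can be given, and every interval covers counting error only. The *alg-1* mRNA is not part of small RNA counts, and its overexpression could not be checked here.

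The members are all mature miRNAs in the count data, with 1 row per name, which gives 434 names. Of these, 243 were counted at least once in either library, 204 in both of them, 28 were seen in ALG-1/OE only, 11 in ctrl only, and 191 were at 0 on both sides. At least 20 reads summed over both libraries were counted for 144 names, which hold 99.8% of the mature reads of ALG-1/OE and 99.9% of those of ctrl, and at least 100 reads for 88 names.

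miRNAs are short RNAs cut from hairpin precursors by Drosha and Dicer. A strand of the resulting duplex, the guide, is kept by an argonaute protein, while the passenger strand is mostly discarded, and ALG-1 is together with ALG-2 the main argonaute of miRNAs in *C. elegans*. miRNAs with the same seed, the bases near the 5′ end that pair with target mRNAs, form a family and can act on the same targets, and hairpins that lie close together on a chromosome can be made from a shared transcript. The comparison asks how raised ALG-1 levels relate to the composition of the miRNA pool.

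ALG-1/OE had 238172 reads on mature miRNAs and ctrl 175048, and WT and *glp-1(e2144)* had 211139 and 536907. Each miRNA is given as its share of these reads, and 2 libraries are compared by the log2 ratio of the shares, ALG-1/OE over ctrl, with its exact 95% interval. The reads of the libraries were compared with an exact binomial test with Benjamini-Hochberg adjustment over the 144 names, and a p-value of this kind compares these libraries, not the strains. Shares show the composition and not the amount of miRNA, and a rise of some names lowers the shares of the others. Without any scaling of the counts every log2 ratio is 0.44 higher, and with TMM factors it shifts by -0.17. A name with a lower share therefore turns to higher in the unscaled counts if its log2 ratio lies between 0 and -0.44, which holds for 43 names, and a name with a higher share turns to lower with TMM factors if its ratio lies between 0 and 0.17, which holds for 21.

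The miRNA pools of both strains were very much alike, and most of the differences were small. Across the 144 names the log2 ratio had a median of 0.096, with quartiles at -0.26 and 0.40, and 83 names had a higher and 61 a lower share in ALG-1/OE. Across the same names, which are not independent, the log shares of both libraries had a Pearson's r of 0.984 and a Spearman's rho of 0.966. The wide range of abundances raises such values, and they were not computed for other pairs of libraries. Only 9 names (6.25%) had a log2 ratio above 1 and 3 names (2.08%) a log2 ratio below -1. By the exact binomial test with Benjamini-Hochberg adjustment, 32 names (22.2%) were higher and 26 (18.1%) lower at an adjusted p under 0.05, and 5 and 2 of these also passed the 2-fold cut-off. These calls depended on the scaling, with 25 names above and 1 below 2-fold in the unscaled counts and 5 and 6 with TMM factors, and with 77 higher and 4 lower by the exact test in the unscaled counts and 17 and 40 with TMM factors. By the same rule on shares, ctrl and WT, which differ in transgene and temperature, had 18 of 140 names (12.9%) past 2-fold, and *glp-1(e2144)* and WT had 45 of 149 (30.2%).

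**Figure D1:**
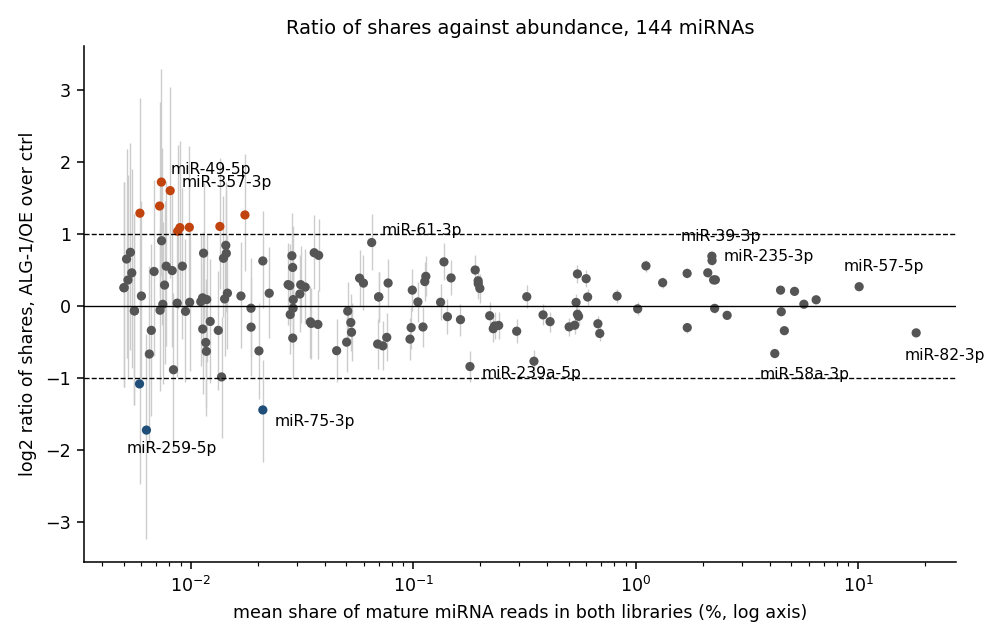
Log2 ratio of the shares of mature miRNA reads (ALG-1/OE over ctrl, y axis) against the mean share in both libraries (x axis, log scale) for 144 miRNAs. Points are single miRNAs, grey bars are 95% intervals for counting error, dashed lines mark 2-fold, and the points above and below them (9 and 3) all lie among the rarer miRNAs; without scaling every point is 0.44 higher.

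The names past 2-fold were all rare. None of the 88 names with at least 100 reads passed the cut-off, and their log2 ratios ran from -0.84 to 0.88. Among the 9 higher names, miR-49-5p had 27 (ALG-1/OE) and 6 (ctrl) reads, a log2 ratio of 1.73 with an interval of 0.42 to 3.29. miR-357-3p had 29 and 7 reads and a log2 ratio of 1.61 (0.38 to 3.04). miR-41-5p, the 5p arm of a germline and embryo miRNA, had 25 and 7 reads and a log2 ratio of 1.39 (0.14 to 2.85). miR-47-5p had 59 and 18 reads and a log2 ratio of 1.27 (0.49 to 2.12), and miR-2209a-3p had 44 and 15 reads and a log2 ratio of 1.11 (0.23 to 2.06). These 5 had an adjusted p under 0.05 in the exact test, from 0.0031 for miR-47-5p to 0.049 for miR-41-5p. The other higher names were miR-60-5p (20 and 6 reads), miR-1018 (32 and 11), miR-228-3p (29 and 10) and miR-259-3p (28 and 10), with adjusted p-values of 0.072 to 0.10 in the exact test. The 3 lower names were miR-75-3p with 27 and 54 reads (log2 ratio -1.44), miR-259-5p with 7 and 17 reads (-1.72) and miR-61-5p with 9 and 14 reads (-1.08), and the first and second of these had an adjusted p under 0.05 in the exact test. Both arms of the mir-259 hairpin are in these lists, in opposite directions. The only name with no reads in one library and at least 10 in the other was miR-795-3p, with 11 (ALG-1/OE) and 0 (ctrl) reads, where 0 reads allow a share of up to 0.00171% (3 reads).

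The ratios differed by abundance class, in an order that depended on how the classes were set. Names with a mean share under 0.01% numbered 32, of which 23 were higher in ALG-1/OE and 9 lower, with a median log2 ratio of 0.33 beside 0.096 over all 144 names. The 57 names between 0.01 and 0.1% had a median of 0.092, the 34 names between 0.1 and 1% a median of -0.12, and the 21 names with at least 1% a median of 0.21, with 13 higher and 8 lower. The lowest class had the highest median in this setting and when the classes were set by the share in ctrl (0.46). By the share in ALG-1/OE its median was 0.041, under the 0.21 of the names with at least 1%, and by the mean share in WT and *glp-1(e2144)*, which do not enter the ratio, it was 0.14 beside 0.15. Its names past 2-fold higher fell from 7 to 1 in the classes by the share in ALG-1/OE. The order of the other classes was the same in these settings, with the names between 0.1 and 1% lowest in each.

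The ALG-1/OE pool was also slightly more even. The most abundant name, miR-82-3p, took 15.9% of the reads (ALG-1/OE) and 20.5% (ctrl), the 10 most abundant took 64.1% and 68.2%, and the 50 most abundant 97.0% and 97.1%. The inverse Simpson number, the number of equally abundant miRNAs that would give the same concentration of reads, was 16.3 in ALG-1/OE and 13.6 in ctrl, beside 15.4 in WT and 13.5 in *glp-1(e2144)*. ALG-1/OE had reads for 232 names and ctrl for 215. At the depth of ctrl, 224 names would be expected in ALG-1/OE.

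Seed families were taken from known family names, since no mature sequences were at hand, and they are listed here from the most abundant. The miR-58/80/81/82 family, the worm relatives of *Drosophila* bantam, was the largest, with 69236 (ALG-1/OE) and 63335 (ctrl) reads. It took 29.1% of the reads (ALG-1/OE) and 36.2% (ctrl), beside 31.0% in WT and 33.8% in *glp-1(e2144)*. The log2 ratio was -0.32 (-0.33 to -0.30), which turned to 0.13 in the unscaled counts. Of all 4 libraries, ctrl held the highest share of this family and ALG-1/OE the lowest, and which library stood apart differed by member. For the main member the libraries other than ctrl were nearly equal. miR-82-3p took 15.9% in ALG-1/OE, 15.8% in WT and 15.9% in *glp-1(e2144)*, and 20.5% in ctrl. For miR-80-3p, ALG-1/OE was lowest at 4.105%, beside 5.201% in ctrl, 5.198% in WT and 6.398% in *glp-1(e2144)*. miR-58a-3p took 3.27% in ALG-1/OE, 4.18% in WT, 4.47% in *glp-1(e2144)* and 5.16% in ctrl. For miR-81-3p, ctrl held the lowest share.

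The members of this family did not move together. miR-58a-3p had 7782 (ALG-1/OE) and 9034 (ctrl) reads, so that its count was lower even in the deeper library (log2 ratio -0.66, -0.70 to -0.62; adjusted p = 1.3e-190, exact test). miR-82-3p with 37790 and 35943 reads had a log2 ratio of -0.37, and miR-80-3p with 9776 and 9104 reads one of -0.34, and both turned to higher in the unscaled counts. miR-80-5p, from the other arm of the same hairpin, had 615 and 769 reads and a log2 ratio of -0.77 (-0.92 to -0.61). miR-81-3p moved the other way, with 13187 and 8407 reads and a log2 ratio of 0.21 (0.17 to 0.24), and its part of the family was 19.0% in ALG-1/OE and 13.3% in ctrl. The *mir-81* and *mir-82* hairpins lie within introns of the same gene, *gid-2*, on opposite strands of chromosome X (chrX:2431072-2431179, plus strand, and chrX:2435258-2435354, minus strand, WBcel235), while *mir-80* lies between genes on chromosome III and *mir-58a* in an intron of *Y67D8A.2* on chromosome IV. The names of a family are close in sequence, how reads that fit several hairpins were counted is not given in the sources used here, and the split between members is uncertain to that extent.

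**Figure D2:**
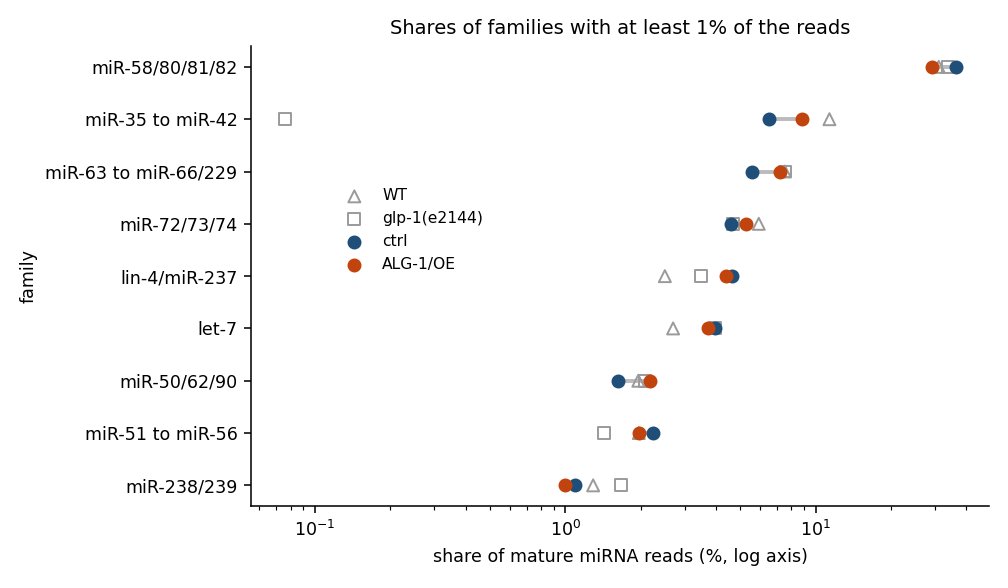
Shares of mature miRNA reads (x axis, log scale) of the 9 families that held at least 1% in ALG-1/OE or ctrl. Filled circles are ALG-1/OE and ctrl (20 °C), joined by a line, open symbols are WT and *glp-1(e2144)* (25 °C), with 1 library each; the miR-58/80/81/82 family was lower and the miR-35 to miR-42 family higher in ALG-1/OE, of which the first turned to higher without scaling.

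The second largest was the family of miR-35 to miR-42, made in the germline, oocytes and embryos and needed for embryonic development. It had 20911 (ALG-1/OE) and 11404 (ctrl) reads, a share of 8.78% and 6.51%, beside 11.3% in WT and 0.0756% in *glp-1(e2144)*. The log2 ratio was 0.43 (0.40 to 0.46), and it stayed above 0 with every scaling, from 0.26 with TMM factors to 0.87 in the unscaled counts. Of its 13 names with at least 20 reads, 12 were higher in ALG-1/OE, 8 of them with an adjusted p under 0.05 in the exact test against 22.2% of all names. miR-39-3p had 6472 (ALG-1/OE) and 2939 (ctrl) reads, which is 1.62-fold in share (1.55 to 1.69), and made up 31.0% of the family in ALG-1/OE and 25.8% in ctrl. miR-35-3p had 6111 and 3486 reads (log2 ratio 0.37), miR-37-3p 3500 and 2052 (0.33), and miR-36-3p 1613 and 910 (0.38). miR-40-3p had the smallest ratio of the abundant members, with 2057 and 1373 reads (0.14, 0.040 to 0.24), and it turned to lower with TMM factors. The only lower member was miR-42-5p, with 28 and 26 reads (-0.34, -1.16 to 0.49), whose hairpin lies apart from the others. In whole worms, a larger germline or more embryos and more of these miRNAs per cell cannot be told apart, and neither brood nor gonad size was measured in these pools.

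The family of miR-63 to miR-66 and miR-229 took 7.17% in ALG-1/OE and 5.55% in ctrl (log2 ratio 0.37, from 0.20 with TMM factors to 0.81 in the unscaled counts). It took 7.53% in WT and 7.57% in *glp-1(e2144)*, so that ctrl held the lowest share and ALG-1/OE lay below both of these. The difference between ALG-1/OE and ctrl lay in miR-229-5p (3153 and 1572 reads, log2 ratio 0.56), miR-65-5p (5818 and 3100, 0.46) and miR-64-5p (6000 and 3425, 0.36). miR-66-5p, from the same cluster, had 1253 and 1016 reads and a log2 ratio of -0.14 (-0.26 to -0.021), and miR-63-3p, whose hairpin lies elsewhere, 237 and 213 reads and -0.29 (-0.56 to -0.016). Neither had an adjusted p under 0.05 in the exact test, and both turned to higher in the unscaled counts. The miR-72/73/74 family, relatives of miR-31, took 5.25% and 4.57% (log2 ratio 0.20, from 0.025 to 0.64 over the scalings), nearly all of it from miR-72-5p with 11474 and 7230 reads. Its share was 5.92% in WT and 4.68% in *glp-1(e2144)*. The miR-50/62/90 family took 2.19% and 1.63% (0.43, from 0.26 to 0.87), with miR-90-3p at 4686 and 2512 reads and miR-50-5p at 515 and 319. This family took 1.96% in WT and 2.07% in *glp-1(e2144)*.

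The families that time larval development had similar shares in both strains. lin-4 and miR-237 took 4.39% in ALG-1/OE and 4.63% in ctrl, beside 2.50% in WT, and their log2 ratio of -0.079 turned to 0.37 in the unscaled counts. This was miR-237-5p alone, with 10445 and 8102 reads, while lin-4-5p itself, the founding member, had 1 (ALG-1/OE) and 2 (ctrl) reads, and 2 and 12 in WT and *glp-1(e2144)*. The let-7 family took 3.71% and 3.95%, beside 2.69% in WT and 3.96% in *glp-1(e2144)*, and its log2 ratio of -0.094 turned to 0.35 in the unscaled counts. Within it, miR-48-5p had 5857 and 4705 reads (-0.13, -0.18 to -0.073), let-7-5p 1307 and 927 reads (0.051, -0.071 to 0.17) and miR-84-5p 1251 and 995 reads (-0.11, -0.24 to 0.0076). For let-7-5p and miR-84-5p the interval of the ratio included 0. Another member, miR-241-5p, had 0 reads in every library, while miR-241-3p from the same hairpin had 14 (ALG-1/OE) and 19 (ctrl).

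The miR-51 to miR-56 family, relatives of miR-100, took 1.97% in ALG-1/OE and 2.24% in ctrl (log2 ratio -0.19, which turned to 0.26 in the unscaled counts), and its members were split. miR-52-5p (1473 and 1283 reads, -0.25), miR-54-3p (1426 and 1364, -0.38), miR-55-3p (486 and 444, -0.31) and miR-53-5p (141 and 152, -0.55) were lower. In contrast, miR-51-5p (517 and 306 reads, 0.31), miR-54-5p (400 and 224, 0.39) and miR-56-5p (84 and 38, 0.70) were higher, and all of these 7 had an adjusted p under 0.05 in the exact test. Of the lower names, miR-52-5p, miR-54-3p and miR-55-3p turned to higher in the unscaled counts and miR-53-5p did not. The 3 higher names were also lower in *glp-1(e2144)* than in WT by more than 2-fold. The family of miR-238 and miR-239a/b took 0.995% and 1.09% (-0.13, which turned to 0.31 in the unscaled counts). Its member miR-239a-5p had 307 and 404 reads, the largest fall among names with at least 100 reads (log2 ratio -0.84, -1.06 to -0.62; 1.79-fold lower; adjusted p = 9.9e-14, exact test), whereas miR-239b-5p had 523 and 463 reads (-0.27) and miR-238-3p 1511 and 1017 (0.13, 0.011 to 0.24). miR-239a/b and miR-238 are known for opposite roles in *C. elegans* lifespan and stress.

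**Figure D3:**
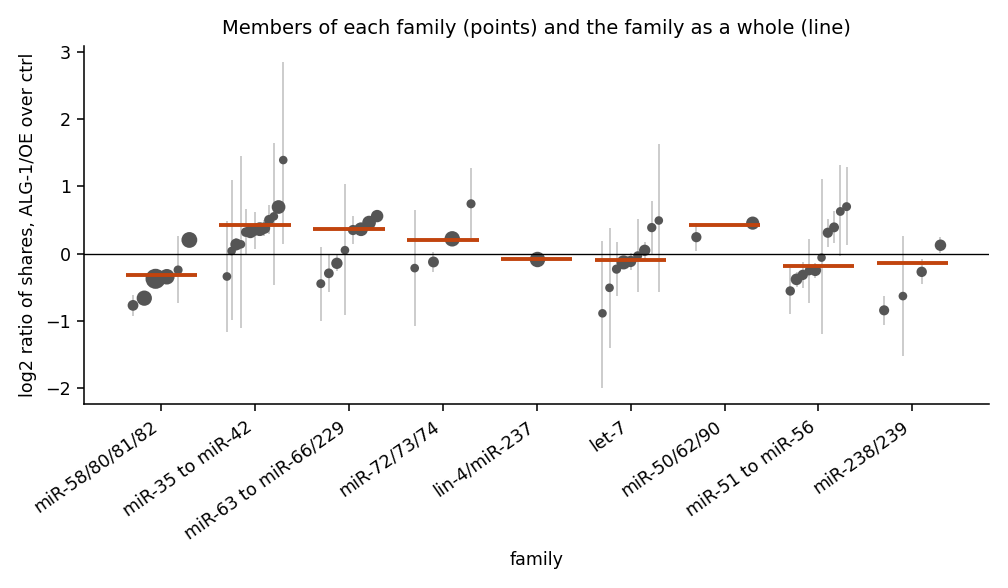
Log2 ratio of shares (ALG-1/OE over ctrl, y axis) of each member with at least 20 reads in the 9 families (x axis). Points are miRNAs, larger where the mean share is higher, with 95% intervals for counting error, and the line is the family as a whole; members of the miR-58/80/81/82 and miR-51 to miR-56 families lie on both sides of 0, and without scaling all values are 0.44 higher, which turns 5 of the 9 families from lower to higher.

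Together, 4 of the 9 families with at least 1% of the reads had a higher share in ALG-1/OE, and all 9 had in the unscaled counts. Among the smaller families, miR-44, miR-45, miR-61 and miR-247 together took 0.243% and 0.175% (log2 ratio 0.47), mainly through miR-61-3p. miR-75/79 took 0.103% and 0.144% (-0.48). miR-46/47 took 0.518% and 0.512% (0.015, -0.11 to 0.14), although the 5p arms of both hairpins were higher. Names in no listed family took 34.6% and 31.7%, and the most abundant of these were miR-57-5p with 26271 and 16010 reads (0.27), miR-228-5p with 15872 and 10973 (0.088, which turned to lower with TMM factors) and miR-70-3p with 13687 and 9878 (0.026, -0.011 to 0.064).

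Hairpins on the same chromosome and strand with under 10 kb between neighbours formed 27 clusters with 76 of the 250 hairpins, and 7 of these clusters held at least 1% of the reads. The *mir-35* to *mir-41* cluster (chrII:11537608-11538404, plus strand, WBcel235) took 8.76% (ALG-1/OE) and 6.50% (ctrl), and all of its 12 names with at least 20 reads were higher, with log2 ratios of 0.041 to 1.39. The *mir-229*, *mir-64*, *mir-65* and *mir-66* cluster (chrIII:2172452-2173206, plus strand, WBcel235), within introns of *gcn-1*, took 7.05% and 5.39% (log2 ratio 0.39), beside 7.38% in WT and 7.38% in *glp-1(e2144)*. Of its 6 names, 5 were higher in ALG-1/OE, 4 with an adjusted p under 0.05 in the exact test. The third cluster that was higher, *mir-228* and *mir-790*, took 6.68% and 6.28%, and its ratio of 0.090 turned to lower with TMM factors.

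Other clusters held members that differed. On chromosome III, *mir-80* and *mir-90* are counted in the same cluster (chrIII:8865270-8874084, minus strand, WBcel235), and miR-90-3p had a log2 ratio of 0.46 while miR-80-3p had one of -0.34. In the *mir-54* to *mir-56* cluster on chromosome X, miR-54-3p was lower and miR-54-5p, from the same hairpin, was higher. The cluster of *mir-61* and *mir-250* took 0.123% and 0.0885% (log2 ratio 0.47), with miR-61-3p at 0.88 and miR-250-3p at -0.12 (-0.67 to 0.44). Clusters of *mir-2* and *mir-71* (-0.096), *mir-48* and *mir-241* (-0.13) and *mir-54* to *mir-56* (-0.23) were slightly lower in ALG-1/OE, and each of these turned to higher in the unscaled counts.

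By the WBcel235 annotation, 243 of the 250 hairpins lie at the coordinates given in the count data, whereas the methods name ce10 as the genome for alignment. miRNAs from hairpins in introns on the strand of the host gene took 35.9% of the reads (ALG-1/OE) and 40.2% (ctrl), those in introns on the opposite strand 17.00% and 14.5%. The difference for host-strand introns lay in miR-82-3p and miR-58a-3p, and that for the opposite strand in the *mir-35* to *mir-41* cluster and miR-81-3p. By chromosome, the X chromosome took 30.5% and 35.04%, and chromosome II 27.7% and 23.4%. By the annotated length of the mature miRNA, names of 22 bases took 39.8% and 42.6% of the reads, names of 23 bases 40.7% and 39.7%, and names of 24 bases 15.5% and 14.2%. Names of 26 bases took 1.36% and 0.935% (log2 ratio 0.54, 0.45 to 0.62), nearly all of it from miR-229-5p.

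The arms of a hairpin show which strand was kept. Over 100 hairpins with both arms listed and at least 20 reads, the less abundant arm held 1.83% of the reads in ALG-1/OE (95% interval 1.77 to 1.88, Clopper-Pearson) and 1.78% in ctrl (1.72 to 1.84), beside 1.94% in WT and 1.32% in *glp-1(e2144)*. The intervals of ALG-1/OE and ctrl overlapped. The share of the less abundant arm was higher in ALG-1/OE for 38 hairpins, lower for 37 and equal for 25, and the median difference was 0 percentage points. By arm name, 5p arms took 42.9% of the reads (ALG-1/OE) and 38.9% (ctrl). The miR-58/80/81/82 family, whose main arms are all 3p, made a difference of -7.11 percentage points between the libraries.

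Single hairpins did shift. By Fisher's exact test on the reads of both arms, with Benjamini-Hochberg adjustment over the 100 hairpins, the less abundant arm had a higher share in ALG-1/OE for 4 (4%) and a lower share for 3 (3%). *mir-54* had 400 of its reads on the 5p arm and 1426 on the 3p arm in ALG-1/OE, and 224 and 1364 in ctrl, so that the 5p arm took 21.9% and 14.1%, beside 30.6% in WT and 11.3% in *glp-1(e2144)*. miR-46-5p took 38.2% of its hairpin in ALG-1/OE and 29.7% in ctrl, beside 25.3% and 26.2% in WT and *glp-1(e2144)*. miR-47-5p, from the related hairpin, took 13.98% and 5.59%, beside 3.63% and 7.60%. For both hairpins of this family, ALG-1/OE had the highest share of the 5p arm of all 4 libraries, while the 3p arms, which are the main ones, had log2 ratios of -0.13 and -0.19, both of which turned to higher in the unscaled counts. *mir-795* had 11 of 126 reads on the 3p arm in ALG-1/OE and 0 of 99 in ctrl.

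In the other direction, miR-61-5p took 4.29% of its hairpin in ALG-1/OE and 14.9% in ctrl, beside 8.37% in WT, and miR-80-5p 5.92% and 7.79%, beside 4.86%. For *mir-259*, the 5p arm took 7 of 35 reads in ALG-1/OE and 17 of 27 in ctrl. *mir-56* had the largest positive difference among hairpins with at least 100 reads, with the 5p arm at 50.9% in ALG-1/OE and 34.9% in ctrl, but its adjusted p in Fisher's exact test was 0.10. *mir-74* had the largest negative difference, with the 3p arm at 20.1% and 32.9%, and it did not pass the test either. Nor did *mir-45*, with the 5p arm at 34.1% and 25.7%, and *mir-240*, with the 3p arm at 9.83% and 11.7%. miR-243, which is known to be loaded into the argonaute RDE-1 rather than ALG-1, had 118 and 91 reads on its 3p arm (log2 ratio -0.069, -0.48 to 0.34). Its 5p arm had 22 and 32 reads (-0.98, -1.84 to -0.16), with an adjusted p under 0.05 in the exact binomial test. The 5p arm took 15.7% of the hairpin in ALG-1/OE and 26.0% in ctrl, with an adjusted p of 0.33 in Fisher's exact test.

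**Figure D4:**
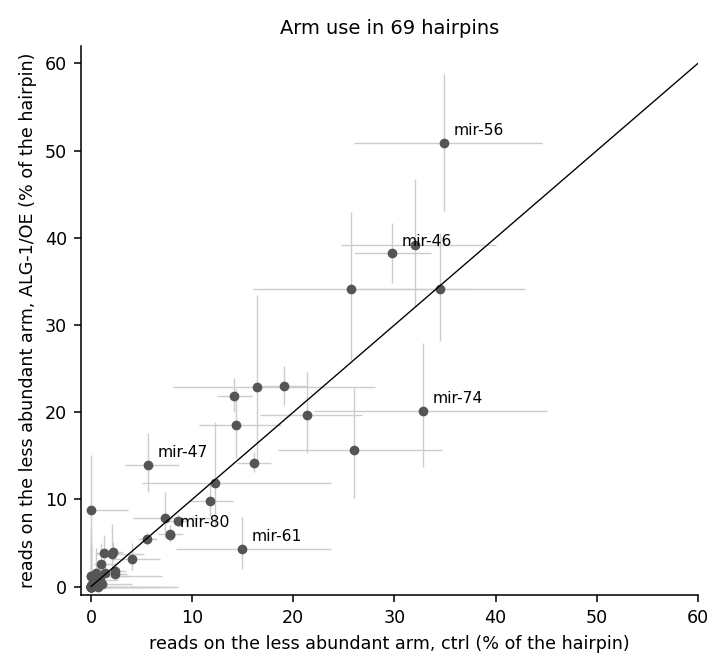
Share of the reads of a hairpin on its less abundant arm in ctrl (x axis) and ALG-1/OE (y axis), both in percent, for 69 hairpins with at least 100 reads. Points are hairpins, bars are 95% intervals for counting error, and the diagonal marks equal shares; *mir-56*, *mir-46* and *mir-47* lie above it and *mir-61* and *mir-74* below it.

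Among names with at least 100 reads, the 12 highest ratios of shares were 1.37-fold to 1.85-fold, and 11 of them had an adjusted p under 0.05 in the exact test. miR-61-3p was first, with 201 (ALG-1/OE) and 80 (ctrl) reads (log2 ratio 0.88, 0.50 to 1.28; adjusted p = 1.0e-05, exact test), followed by miR-74-5p with 107 and 47 reads (0.74) and miR-87-3p with 111 and 50 reads (0.71). miR-235-3p, the worm relative of miR-92, was the most abundant of them beside miR-39-3p, with 6379 and 3021 reads, a share of 2.68% and 1.73%, and a log2 ratio of 0.63 (0.57 to 0.70). miR-230-5p had 396 and 190 reads (0.62, 0.36 to 0.87). miR-1022-5p had 81 and 41 reads, and it did not pass the test (0.54, -0.021 to 1.12).

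The 12 lowest ratios were 1.29-fold to 1.79-fold lower. Beside miR-239a-5p, miR-80-5p, miR-58a-3p, miR-53-5p, miR-54-3p and miR-82-3p from the families above, these were miR-254-3p with 85 and 96 reads (-0.62), miR-248 with 135 and 143 (-0.53), miR-240-3p with 99 and 103 (-0.50), miR-2-3p with 194 and 196 (-0.46), miR-63-5p with 58 in both (-0.44) and miR-71-3p. All but miR-63-5p had an adjusted p under 0.05 in the exact test. In the unscaled counts the ratios of miR-239a-5p, miR-80-5p and miR-58a-3p were -0.40, -0.32 and -0.22, those of miR-254-3p, miR-53-5p, miR-248, miR-240-3p and miR-2-3p were between -0.18 and -0.015, and the others were at or above 0.

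The study tested null mutants of several miRNA genes. Of these, miR-87, miR-230, miR-235 and miR-71 are described together here, miR-47, miR-229, miR-259 and miR-357 have been given above, and miR-45-3p (85 and 52 reads, log2 ratio 0.26) and miR-45-5p (44 and 18 reads, 0.85) had adjusted p-values of 0.49 and 0.088 in the exact test. All 4 arms of miR-87 and miR-230 had a higher share in ALG-1/OE, but with few reads on some. miR-87-3p had 111 and 50 reads and an adjusted p of 0.013 in the exact test, and miR-87-5p 15 and 7. miR-230-3p had 34 and 15 reads (log2 ratio 0.74, -0.18 to 1.72), and its interval included 0, whereas that of miR-230-5p did not. miR-71-5p, known to promote longevity of germline-deficient worms, had 2397 (ALG-1/OE) and 1809 (ctrl) reads, a share of 1.01% and 1.03%, beside 0.874% in WT and 1.32% in *glp-1(e2144)*. Its log2 ratio of -0.038 had an interval of -0.13 to 0.051, and it was 0.41 in the unscaled counts. Its passenger strand, miR-71-3p, had 154 and 153 reads and a log2 ratio of -0.43 (-0.77 to -0.10).

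Tissue markers were read in the same way. miR-60-3p, made in the intestine, had 500 and 445 reads (log2 ratio -0.28, which turned to 0.17 in the unscaled counts), and miR-60-5p, from the same hairpin, 20 and 6 (1.29, -0.076 to 2.90). lsy-6-3p, made in a taste neuron, had 23 and 9. Other neuronal names had few reads, with miR-790-3p at 6 and 4 and miR-791-5p at 7 and 4. The muscle miRNA miR-1-3p had 5 (ALG-1/OE) and 1 (ctrl) reads, miR-1-5p had 7 and 8, and the neuronal miR-124-3p had 0 in all 4 libraries. The shares of miR-1 and miR-124-3p were thus at or near 0 in whole worms of every strain. How far this, the low count of lin-4-5p and the lack of reads for miR-241-5p lie in the counting was not tested.

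The miRNAs with a lower share in germline-deficient worms than in WT tended to be higher in ALG-1/OE than in ctrl. Of the 144 names, 34 (23.6%) had a share more than 2-fold lower in *glp-1(e2144)* than in WT, and 13 (9.03%) a share more than 2-fold higher. These libraries are not part of the ratio of ALG-1/OE over ctrl. Of the 34 names, 27 were higher in ALG-1/OE and 7 lower, with a median log2 ratio of 0.32 and quartiles of 0.082 and 0.50. In the exact test, 14 of the 34 had an adjusted p under 0.05 for a higher share and 0 for a lower one. Over all 144 names these were 32 (22.2%) and 26 (18.1%). Of the 97 names within 2-fold, 51 were higher and 46 lower, with a median of 0.051, and of the 13 names that were higher in *glp-1(e2144)*, 5 were higher and 8 lower, with a median of -0.031.

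The pattern was not limited to the miR-35 family. Without its 13 names, 21 names remained, of which 15 were higher and 6 lower, with a median of 0.31. Over all 131 names without that family, 71 were higher and 60 lower, with a median of 0.058. An adjusted p under 0.05 for a higher share in the exact test was found for 6 of the 21 names and 24 of the 131. With at least 100 reads, 11 of the 21 names were left, 9 of them higher, with a median of 0.31. They include miR-61-3p, which had 186 reads in WT and 21 in the much deeper *glp-1(e2144)* library, miR-74-5p (103 and 42), miR-56-5p (75 and 61), miR-44-5p (215 and 32), miR-51-5p (560 and 376) and miR-54-5p (503 and 382). For each of these named miRNAs the share in ALG-1/OE lay above that in ctrl and below that in WT. miR-61-3p took 0.0844% in ALG-1/OE, 0.0457% in ctrl and 0.0881% in WT, and miR-54-5p 0.168%, 0.128% and 0.238%. miR-1829b-5p, at 0.107%, 0.0914% and 0.0886%, was higher in ALG-1/OE than in WT. miR-73-3p, with 1010 and 930 reads in WT and *glp-1(e2144)*, went the other way, with 874 (ALG-1/OE) and 699 (ctrl) reads and a log2 ratio of -0.12 (-0.27 to 0.024). So did miR-250-3p, with 64 and 51 reads (-0.12, -0.67 to 0.44). The lower names with fewer reads were miR-61-5p (9 and 14, -1.08), miR-787-3p (24 and 22, -0.32), miR-74-3p (27 and 23, -0.21) and miR-51-3p (17 and 13, -0.057). miR-61-5p, miR-74-3p and miR-51-3p are the other arms of hairpins named above. The amount of germline tissue in the pools was not measured, and its part in these ratios was not tested. Of the 34 names, 33 were higher in the unscaled counts and 23 with TMM factors, where the median over all 144 names was -0.076 and that of the 34 names 0.15.

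**Figure D5:**
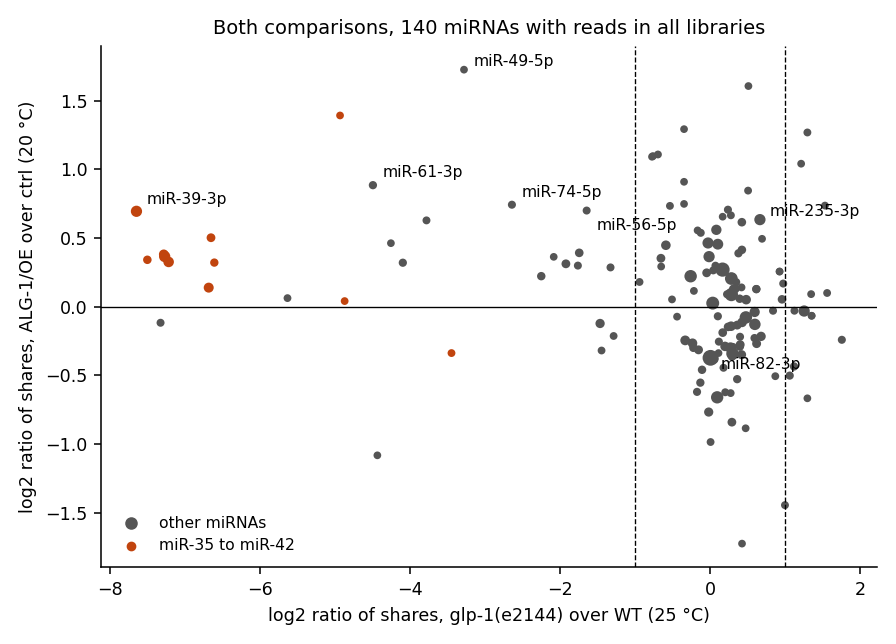
Log2 ratio of shares of *glp-1(e2144)* over WT (25 °C, x axis) and of ALG-1/OE over ctrl (20 °C, y axis) for 140 miRNAs with reads in all 4 libraries; the 4 other names had 0 reads in *glp-1(e2144)*. Points are miRNAs, larger where the mean share is higher, those of miR-35 to miR-42 are coloured, and dashed lines mark 2-fold; of the names left of the dashed line most lie above 0 on the y axis.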

How the data were processed

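The authors pooled worms (500–800 per sample in the methods, 1000 in the labels), enriched small RNA from 6 µg of total RNA, removed adapters and reads under 18 bases with the Fastx-ToolKit, aligned to ce10 with Bowtie2 and deposited raw read counts, with no normalization, for 447 mature and 250 hairpin rows per library. The labels name a SOLiD kit and the methods the HiSeq2500 platform. The program and annotation used for counting, and the handling of reads that fit several places, are not given in the sources used here. The methods scaled by all reads of a sample, which are not in the deposited counts, so shares of mature miRNA reads were used.

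Hairpin rows were left out, and a name listed more than once was taken by its row with the most reads in the pair. Names with at least 20 reads in the pair were compared, without a pseudocount. Intervals are exact (Clopper-Pearson), and p-values come from exact binomial tests on the reads, or Fisher's exact test for arms, with Benjamini-Hochberg adjustment. Families were assigned by known names. The test was checked on simulated counts that held counting error only and used the true scaling. That check does not cover differences between pools of worms or an unknown scaling. The names described are the 10 most abundant, the 12 largest rises and falls among names with at least 100 reads, miR-87, miR-230, miR-235 and miR-71, whose mutants the study tested, members of families and clusters with at least 1% of reads, tissue markers, the 5 largest arm shifts in each direction, and names at 0 in a library with at least 10 reads in the other. The smaller families and clusters, hairpins of few reads, all names past 2-fold and the split by *glp-1(e2144)* against WT were added after their values were seen. The members and lists were chosen with earlier results of these data known. Alternatives changed the scaling (edgeR 4.0.16 TMM factors, DESeq2 1.42.0 size factors, totals without a family, none), the filter, a pseudocount of 0.5 reads, the cut-off, repeated rows, cluster distance, abundance classes and the choice of arm. Computations used Python 3.11.15 with scipy 1.17.1 and pandas 2.3.3.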

Additional observations from a re-analysis of the deposited data

How the results depend on the processing

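The number of miRNAs past 2-fold was 9 higher and 3 lower as reported. It was 25 and 1 without scaling, 5 and 6 with TMM factors, 5 and 5 with median-of-ratios size factors and 5 and 5 with totals that leave out the miR-58/80/81/82 family. The median log2 ratio in these settings was 0.54, -0.076, -0.045 and -0.056. The numbers with an adjusted p under 0.05 (exact binomial test, Benjamini-Hochberg) were 77 higher and 4 lower, 17 and 40, 20 and 40, and 19 and 40. All names with a read in both libraries gave 23 and 14, names with at least 100 reads 0 and 0 (27 higher and 23 lower by the exact test), a 1.5-fold cut-off 24 and 12, and the fold together with the adjusted p 5 higher.

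Without scaling the log2 ratio turned from lower to higher for the families miR-58/80/81/82 (0.13), lin-4/miR-237 (0.37), let-7 (0.35), miR-51 to miR-56 (0.26) and miR-238 with miR-239a/b (0.31), and for the clusters of *mir-80* (0.31), *mir-48* (0.32), *mir-2* (0.35) and *mir-56* (0.21), so that 9 of 9 families and 7 of 7 clusters were higher. The *mir-228* cluster turned to lower with TMM factors (-0.083), median of ratios (-0.051) and totals without the largest family (-0.063). With under 50 kb between neighbours, 5 of 10 clusters were higher. The scalings of families, clusters and adjusted p-values were chosen after seeing the data. Totals without miR-35 to miR-42, the pseudocount, summed or separate rows, names without an equal count on the other strand, and the alternatives for arms moved no count by over 1.5 times and no median or share beyond its spread. Totals without miR-35 to miR-42 did move some log2 ratios beyond their intervals, without a change of direction. These were the families miR-58/80/81/82 (-0.28) and miR-35 to miR-42 (0.47), and the clusters of *mir-35* (0.47), *mir-80* (-0.10) and *mir-228* (0.13). In the lowest abundance class, setting the classes by the share in ALG-1/OE moved the median from 0.33 to 0.041, the names past 2-fold higher from 7 to 1 and those with an adjusted p under 0.05 for a higher share from 3 to 0.

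No paired analysis was possible because each strain had 1 library, and for the same reason leaving out a replicate had no meaning. Families by seed bases 2 to 7 and with identical sequences counted once were not run, since no mature sequences were at hand. At a sum of 20 reads the intervals span several-fold, so the rare names are measured least well.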
